A study of Mus musculus with 2 samples.

Results

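Myogenic transcription factors are the DNA-binding proteins that set and carry out the muscle programme. The genes described here are 9 of the 27321 genes with a count in either library: the paired box gene Pax7, the myogenic basic helix-loop-helix (bHLH) genes Myf5, Myod1 and Myog, the bHLH repressor Msc, the MEF2 genes Mef2a, Mef2c and Mef2d, and the homeobox gene Six4. They were chosen by name, through the Ensembl identifier of each mouse symbol, with earlier results of these data known. Mouse skeletal muscle stem cells (MuSCs) were profiled on the Chromium platform, in which each droplet gives its cell a barcode and each captured mRNA a unique molecular identifier (UMI). A library labelled 10% was sequenced with both short and long reads, and another labelled 90% with short reads only. Their short-read tables held 6772259 UMIs in 1991 barcodes and 39044129 UMIs in 3001 barcodes. They come from mice termed Pax7creERT2R26-eYFPfl/fl on a C57BL6 background, in which a Cre recombinase expressed from Pax7 and induced by tamoxifen turns on YFP. The label thus depends on Pax7 in every cell sorted, and the effect of the altered Pax7 allele on counts of Pax7 was not tested.

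All animals were 3 months old when they were given tamoxifen (100 uL at 20 mg/ml, daily for 5 days), and 2 weeks later muscle cells were sorted on YFP. Quiescent MuSCs came from uninjured hindlimb muscle and activated MuSCs from muscle taken 72 hours after 40 uL of 1.2% barium chloride was injected. Both were sequenced together, and the labels give neither the muscle a barcode came from nor the number of mice. There is 1 sample of each library, so no test between conditions was possible, and intervals below are 95% intervals that cover counting error only. Barcodes of contrasting depth were compared instead. Shallow barcodes held 3000 to 15000 short-read UMIs and none of Rrm2, Top2a and Cdk1, which are genes of dividing cells. Deep barcodes held at least 20000 UMIs.

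In muscle, Pax7 marks the stem cell, Myf5 and Myod1 commit a cell to the lineage, and Myog drives its differentiation. Each of these bHLH factors binds an E-box as a dimer with an E protein, and Msc (musculin, or MyoR) competes for the same sites as a repressor. MEF2 proteins and homeobox proteins such as Six4 act with the bHLH factors at many muscle promoters, with the Myog promoter as the textbook case.

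The Myog promoter shows where the proteins described here meet on DNA, and that of Myf5 is set beside it because the levels of these 2 genes lay on opposite sides between the classes below. Both are the 250 bases before the annotated start in the RefSeq table of build GRCm38.p6, which held promoters of 7 of the 9 genes (all but Myod1 and Msc). Myog is on the plus strand at chr1:134289754-134290003, and Myf5 on the minus strand at chr10:107486135-107486384, and capitals mark matches on either strand to the E-box (CANNTG), the MEF3 motif bound by Six4 and its relatives (TCAGGTT) and a MEF2-like motif (CTANNNNTA).
Myog: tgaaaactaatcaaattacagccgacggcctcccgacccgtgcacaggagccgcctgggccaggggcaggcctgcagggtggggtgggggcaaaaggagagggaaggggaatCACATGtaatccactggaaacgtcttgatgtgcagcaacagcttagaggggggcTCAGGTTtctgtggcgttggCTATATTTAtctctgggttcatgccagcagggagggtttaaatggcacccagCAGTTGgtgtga
Myf5: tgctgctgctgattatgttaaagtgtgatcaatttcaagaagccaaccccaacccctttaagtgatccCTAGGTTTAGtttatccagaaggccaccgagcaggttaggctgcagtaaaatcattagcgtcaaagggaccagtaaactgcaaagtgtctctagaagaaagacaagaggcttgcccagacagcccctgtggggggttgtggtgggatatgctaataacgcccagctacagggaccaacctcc
The Myog stretch held 2 E-boxes, 138 and 12 bases before the start, a MEF3 motif at 84 bases and a MEF2-like motif at 64 bases. The Myf5 stretch held only a MEF2-like motif, matched on both strands in overlapping positions 182 and 181 bases before the start. Of 32841 promoter stretches of this length, 66.2% held an E-box, 3.49% the MEF3 motif and 19.0% the MEF2-like motif, so the MEF3 motif was the rare one. Among the other promoters, those of Pax7, Mef2a and Mef2d held none of these motifs. A Six4 stretch held a MEF3 motif, and Mef2c stretches held E-boxes, a MEF3 motif and a MEF2-like motif between them. A match is a run of letters and not a measured binding site, and a link of motifs to levels was not tested.

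The libraries were not independent. Droplets were divided between the libraries, according to the study. All 330 barcodes of the 10% library with at least 1000 UMIs nevertheless stood in the table of the 90% library, 324 of them with at least 1000 UMIs there. Their UMIs in the 90% library were a median of 0.821 times those in the 10% library. The median correlation over genes was 0.929 for the same barcode in both tables and 0.703 for a barcode and the next one in the list. Values of the 90% library are therefore given without these barcodes, unless stated. The 10% library then had 157 shallow barcodes (median 6729 UMIs) and 79 deep ones (median 65499), and the 90% library 1077 (median 4567) and 507 (median 46286).

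Markers of quiescent MuSCs were higher in shallow barcodes. The 6 markers of quiescent MuSCs (Calcr, Spry1, Chrdl2, Heyl, Notch3 and Cd34) summed to 493 CPM (counts of UMIs scaled to the same total in every class) in shallow and 29.6 CPM in deep barcodes of the 10% library, and to 597 and 33.2 CPM in the 90% library. All 6 were detected in each class. The 4 markers of fibro-adipogenic progenitors were also higher in shallow barcodes, at 181 against 33.7 CPM and 305 against 25.5 CPM. Of these, 3 were detected in each shallow class and Pdgfra was at 0. The highest shallow barcode of the 90% library held 20455 CPM of the 4 markers. The 6 immune markers summed to 103 and 55.9 CPM in the 10% library and to 99.2 and 3.95 CPM in the 90% library. The 3 Schwann cell markers summed to 60.1 and 1.37 CPM in the 10% library, with 1 barcode at 19332 CPM, and to 3.13 and 0.904 CPM in the 90% library. The part of other cells in the values below was not tested beyond leaving out immune barcodes, those with 4 or more immune markers, which kept all calls in the 10% library and those of Msc, Myf5 and Myod1 in the 90% library.

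A level is the CPM of UMIs summed over a class, relative to all RNA captured in it, and less of one RNA cannot be told apart from more of the rest. Levels are not compared between genes, because capture of the 3′ end differs from gene to gene. A difference is log2 of shallow over deep after adding 5 CPM, called when it passed 2-fold. Of the 9 genes, 8 passed a minimum of 20 UMIs over both classes in each library, and Mef2c did not. In both libraries 3 of these 8 were called higher in shallow barcodes, namely Msc, Myf5 and Myod1. Over the 10072 genes that passed the minimum, the background for this call was 11.2% in the 10% library and 11.2% in the 90% library. It was 8.97% for genes called higher in shallow barcodes of both. In the other direction Myog and Six4 were called in the 10% library, where the background was 19.8%, and no gene of the 9 in the 90% library, where it was 19.1%. With shared barcodes kept, Six4 was called in the 90% library too, against a background of 19.0%. Counts in this direction thus lay near the background. The median over all genes tested was -0.22 on the log2 scale in both libraries, and differences can be read against that value. Among all calls, 36.1% in the 10% library and 37.0% in the 90% library with all barcodes were higher in shallow barcodes, which became 50.6% and 51.9% relative to that median.

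**Figure D1:**
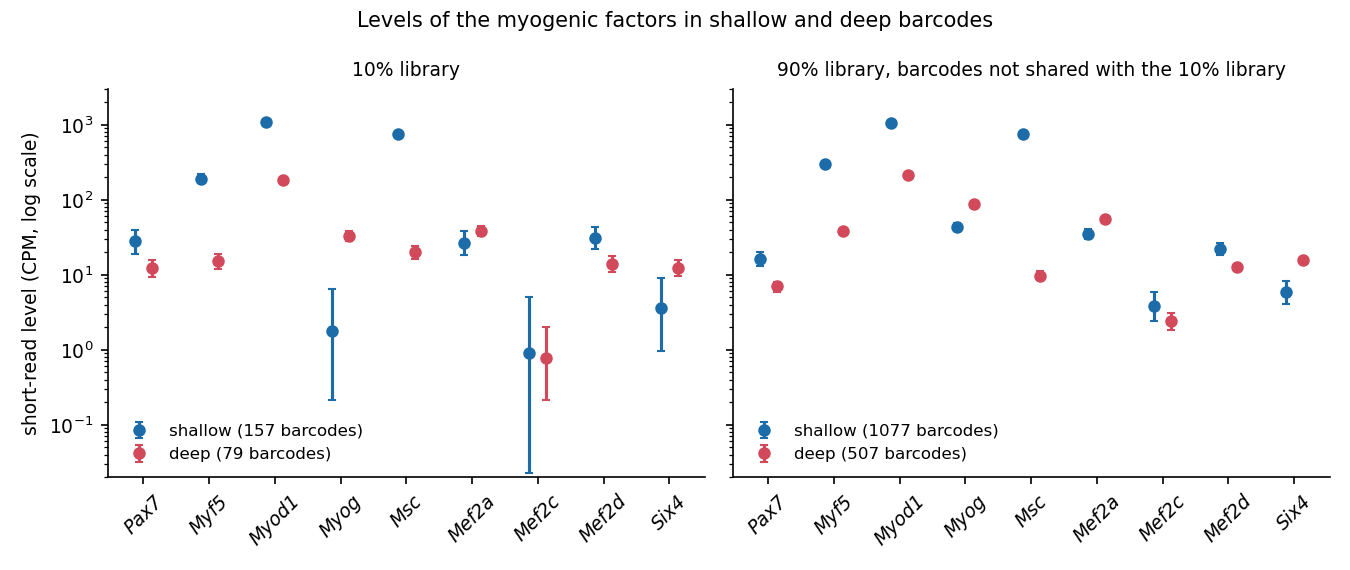
Short-read level of each gene in CPM (log axis) in shallow (blue) and deep (red) barcodes of the 10% library (left) and of the 90% library without shared barcodes (right). Bars are exact Poisson 95% intervals. Msc, Myf5 and Myod1 lie higher in shallow barcodes in both panels, and Pax7 and Mef2d by a smaller margin. Myog and Six4 lie higher in deep barcodes in both panels, and the intervals of Mef2a overlap in the 10% library.

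Pax7, the marker of the stem cell and the driver of the YFP label, was sparse. It gave 31 UMIs in shallow and 62 in deep barcodes of the 10% library, or 27.8 CPM (18.9 to 39.5) and 12.2 CPM (9.32 to 15.6). The 90% library gave 16.4 CPM (13.2 to 20.2) and 6.99 CPM (5.98 to 8.12). The difference was 0.94 (0.41 to 1.45) and 0.84 (0.57 to 1.10) on the log2 scale, both above 0 and neither past 2-fold. Relative to the median gene, whose log2 difference was -0.22, it passed 2-fold in both libraries.

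A Pax7 UMI was seen in 14.0% of shallow and 40.5% of deep barcodes in the 10% library, and in 6.04% and 21.3% in the 90% library. After each barcode was thinned to 3000 UMIs, the expected shares were 6.85% and 3.72%, and 3.79% and 2.16%. The order of the classes thus turned with depth. A Pax7 UMI therefore marked few of the sorted cells at this depth, and its absence from a barcode cannot be read as absence of the gene.

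Myf5, a commitment factor that is also transcribed in quiescent MuSCs, was well above its level in deep barcodes. The 10% library held 190.2 CPM (165 to 218) in shallow against 15.1 CPM (11.9 to 18.9) in deep barcodes, and the 90% library 296 CPM (282 to 311) against 38.6 CPM (36.1 to 41.1). The log2 difference was 3.28 (2.96 to 3.59) and 2.79 (2.68 to 2.90), or 12.6-fold and 7.68-fold without the added CPM. Per barcode the classes were close, with a mean of 1.35 Myf5 UMIs in shallow and 0.975 in deep barcodes of the 10% library, and 1.49 and 1.85 in the 90% library. The share of barcodes with a UMI was also close, at 39.5% and 44.3% in the 10% library and 42.7% and 44.6% in the 90% library. When thinned to 3000 UMIs, those shares were 25.9% and 5.29%, and 35.1% and 9.74%. A deep barcode thus held about as many Myf5 UMIs as a shallow one, among many more UMIs of other genes.

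Myod1, the other commitment factor, had the same pattern of level with more UMIs behind it. Shallow barcodes held 1106 CPM (1045 to 1169.8) and deep ones 185 CPM (173 to 197) in the 10% library. The 90% library held 1044 CPM (1017 to 1072) and 216 CPM (209.9 to 222). The differences were 2.55 (2.43 to 2.67) and 2.25 (2.20 to 2.30) on the log2 scale. Per barcode the order was the reverse, with a mean of 7.85 Myod1 UMIs in shallow against 11.9 in deep barcodes, and of 5.26 against 10.3. The level relative to other RNA and the number of molecules seen per barcode thus ran in opposite directions.

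Detection of Myod1 was also split within the shallow class. A Myod1 UMI was present in 52.9% of shallow and 84.8% of deep barcodes of the 10% library, and in 48.1% and 89.2% of the 90% library. Thinned to 3000 UMIs, the shares were 46.9% and 36.4%, and 44.6% and 39.1%, so that depth set much of the gap and its direction. Where it was present in shallow barcodes, the median was 12.0 UMIs in the 10% library and 8.00 in the 90% library. The part of RNA from outside the cell in these counts was not tested. Of the immune barcodes, 0 of 5 in the 10% library (median 13038 UMIs) held a Myod1 UMI. In the whole 90% library it was 0 of 11 (median 9424 UMIs), which allows up to 27.3% of such barcodes to hold a UMI by the limit of 3 counts (28.5% by the exact interval) and does not limit the share of cells that express the gene. Barcodes with fewer than 200 UMIs held 13 Myod1 UMIs (357 CPM) in 8 of 1569 barcodes of the 10% library and 2 UMIs in 2 of 150 barcodes of the 90% library. Those of the 10% library held 1583331 long-read UMIs, among them 1911 of Myod1, so they are not read as a background, and whether they hold cells was not tested.

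Msc, the bHLH repressor, differed most of the 9 genes between the classes. Shallow barcodes held 750.1 CPM (700.1 to 803) and deep barcodes 20.0 CPM (16.3 to 24.3) in the 10% library, and 753 CPM (729.9 to 776) and 9.74 CPM (8.54 to 11.1) in the 90% library. The log2 difference was 4.92 (4.67 to 5.17) and 5.68 (5.55 to 5.81), or 37.5-fold and 77.3-fold. Unlike Myod1, Msc was also higher per barcode in the shallow class, with a mean of 5.32 against 1.29 UMIs and of 3.79 against 0.467 UMIs. It was present in 45.9% of shallow and 32.9% of deep barcodes in the 10% library, and in 42.0% and 20.9% in the 90% library. Of the Msc UMIs in deep barcodes of the 10% library, 70.6% lay in 5 barcodes, with up to 21 UMIs in one. In its shallow barcodes, 38.6% lay in 5 barcodes, with up to 131 UMIs in one. The share in 5 shallow barcodes of the 90% library was 6.83%. The Poisson intervals do not cover such concentration. No Msc UMI was found in the immune barcodes of either library.

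Myog, which drives differentiation, was the member on which the libraries differed most. In the 10% library it had 2 UMIs in 2 of 157 shallow barcodes and 169 in 12 of 79 deep barcodes, or 1.79 CPM (0.217 to 6.48) and 33.1 CPM (28.3 to 38.5). Deep over shallow was 18.5-fold with a counting interval of 5.03 to 154. Of the deep UMIs, 89.9% lay in 5 barcodes and 81 in 1 of them, and with deep barcodes taken from 30000 UMIs the deep level was 17.0 CPM and the log2 difference -1.69 in place of -2.49. The 90% library held 43.7 CPM (38.3 to 49.6) in shallow and 87.3 CPM (83.6 to 91.1) in deep barcodes, which is a log2 difference of -0.92 (-1.10 to -0.75) and not past 2-fold. There 237 UMIs in the shallow class came from 19 of 1077 barcodes, and 77.2% of them from 5. Such concentration in few barcodes is not covered by the Poisson intervals. A Myog UMI stood in 15.2% of deep barcodes of the 10% library and 25.6% of the 90% library, and in 1.27% and 1.76% of shallow barcodes. Thinned to 3000 UMIs, these shares were 4.99% and 8.60% in deep and 0.716% and 1.36% in shallow barcodes, which kept the order in both libraries.

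**Figure D2:**
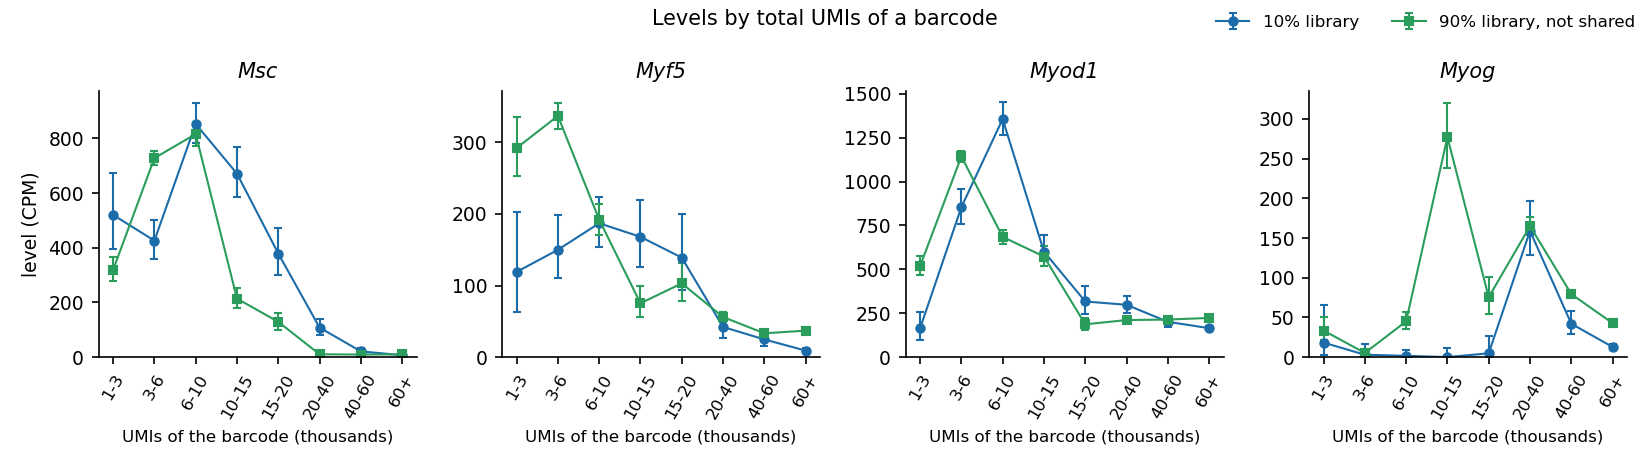
Level in CPM of Msc, Myf5, Myod1 and Myog against the total UMIs of a barcode in units of 1000, for all barcodes of the 10% library (blue circles) and of the 90% library without shared barcodes (green squares), with or without cycle UMIs. Bars are exact Poisson 95% intervals. Msc lies lower in every bin above 20000 UMIs than in any below 15000, Myod1 is highest between 3000 and 10000 UMIs, and Myog has its peaks between 10000 and 40000 UMIs.

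Cut into bins of depth, each gene had its own course. Msc was at its highest between 6000 and 10000 UMIs, at 853 CPM in the 10% library and 816 CPM in the 90% library, and at 6.94 and 10.2 CPM above 60000 UMIs. Myod1 reached 1356 CPM between 6000 and 10000 UMIs in the 10% library and 1143 CPM between 3000 and 6000 UMIs in the 90% library, and lay at 165 and 223 CPM above 60000 UMIs. Its decline was thus less deep than that of Msc. Myog rose to 159 CPM between 20000 and 40000 UMIs in the 10% library, from 4.80 CPM in the 12 barcodes of the bin below, but 81 of the 87 UMIs behind that level lay in 1 barcode. In the 90% library it was at 277 CPM in the 54 barcodes of 10000 to 15000 UMIs and at 165 CPM between 20000 and 40000 UMIs, and fell to 42.8 CPM above 60000 UMIs. The bin from 15000 to 20000 UMIs lies in neither class and held 12 and 34 barcodes.

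The MEF2 genes showed small differences. Mef2a had 26.9 CPM (18.2 to 38.4) in shallow and 38.4 CPM (33.2 to 44.2) in deep barcodes of the 10% library, and 34.8 CPM (30.1 to 40.2) and 55.1 CPM (52.2 to 58.2) in the 90% library. Its log2 difference was -0.44 (-0.94 to 0.04) and -0.59 (-0.79 to -0.40). Mef2d went the other way, from 31.4 CPM (21.9 to 43.7) to 13.9 CPM (10.9 to 17.6) and from 21.9 CPM (18.2 to 26.3) to 12.6 CPM (11.2 to 14.1), with log2 differences of 0.94 (0.44 to 1.43) and 0.61 (0.37 to 0.86). Neither passed 2-fold. Mef2a and Mef2d are broadly expressed. Among the 11 immune barcodes of the whole 90% library, Mef2a had 6 UMIs in 4 barcodes and Mef2d had 4 UMIs in 1 barcode. Mef2c, the third MEF2 gene, had 1 UMI in shallow and 4 in deep barcodes of the 10% library, and 21 and 59 in the 90% library. Of those 59, 66.1% lay in 5 barcodes.

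Six4, a homeobox partner of the bHLH factors, was low throughout. It had 4 UMIs in shallow and 63 in deep barcodes of the 10% library, or 3.59 CPM (0.978 to 9.19) and 12.4 CPM (9.49 to 15.8). The 90% library held 5.90 CPM (4.04 to 8.33) and 15.7 CPM (14.2 to 17.4). The log2 difference of -1.01 (-1.60 to -0.25) was just past the threshold in the 10% library, and that of -0.93 (-1.22 to -0.62) just short of it in the 90% library. In long reads of the 10% library the direction turned, with 18 UMIs in shallow and 28 in deep barcodes and a log2 difference of 0.71 (0.11 to 1.29). Those long-read UMIs lay in 5 of 157 shallow and 12 of 79 deep barcodes, and the counting interval does not cover such concentration. The direction of the summed level of Six4 therefore differed between the types of read, on few barcodes.

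**Figure D3:**
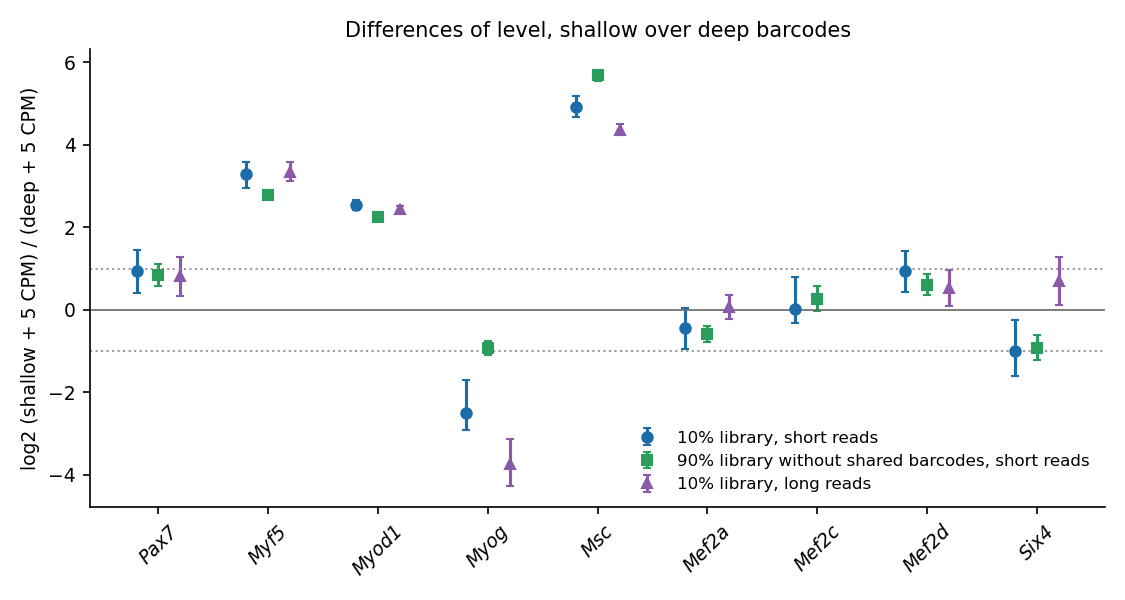
Difference of level on the log2 scale, shallow over deep barcodes after adding 5 CPM, for each gene in short reads of the 10% library (blue circles), short reads of the 90% library without shared barcodes (green squares) and long reads of the 10% library (purple triangles). Bars are 95% counting intervals and dotted lines mark 2-fold; Mef2c has no long-read isoform and so no triangle. The 3 measures lie on the same side of 0 for Msc, Myf5, Myod1, Pax7, Mef2d and Myog, and on both sides for Mef2a and Six4.

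Short-read UMIs of the 3 genes called higher in shallow barcodes were found in varied combinations. Absence of a UMI is not absence of the gene. In shallow barcodes of the 10% library, long reads found Myod1 in 80.3% and short reads in 52.9%. The combinations are therefore not read as kinds of cells. UMIs of Msc, Myf5 and Myod1 were all present in 17 of 157 shallow barcodes of the 10% library (10.8%, exact binomial interval 6.44 to 16.8%) and in 111 of 1077 of the 90% library (10.3%, 8.55 to 12.3%). None of the 3 was present in 19.1% and 19.8%. Myod1 stood without Msc and Myf5 in 17.2% and 15.8%, and Msc or Myf5 without Myod1 in 28.0% and 32.1%. Shallow barcodes with and without a Myod1 UMI had like depths, with medians of 6664 and 6792 UMIs in the 10% library and of 4608 and 4530.0 in the 90% library.

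Those groups, cut on short-read detection of Myod1, also had like levels of quiescence markers. Chrdl2 was at 163 CPM (132 to 199) with and 146 CPM (115 to 183) without a Myod1 UMI in the 10% library, and at 217 CPM (199 to 235) and 232 CPM (214 to 251) in the 90% library. Heyl, a target of Notch signalling, was at 125 and 127 CPM, and at 175 CPM (159.9 to 192) and 150.1 CPM (136 to 165). Msc was somewhat higher beside Myod1, at 903 CPM (828 to 983) against 576 CPM (513 to 645) and at 852 CPM (817 to 888) against 659 CPM (629 to 689.7). Myf5 was lower beside Myod1 in the 10% library, at 131 against 257 CPM, and about equal in the 90% library, at 291 CPM (271 to 312) against 301 CPM (281 to 322).

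Deep barcodes could be divided by Myog. With 3 or more Myog UMIs there were 8 of 79 deep barcodes in the 10% library and 66 of 507 in the 90% library, and with none 67 and 377, while 4 and 64 lay between with 1 or 2. Depth was alike, with medians of 61624 and 65373 UMIs in the 10% library and of 48362 and 46076 in the 90% library. As the groups were cut on Myog, its own level is not a result. In the 90% library Mef2a was at 135 CPM (123 to 149) where Myog was present and 40.1 CPM (37.3 to 43.2) where it was not. Mef2c was at 12.7 CPM (9.11 to 17.2) against 0.834 CPM (0.467 to 1.38), with 41 UMIs in 8 of the 66 barcodes. Myod1 was at 354 CPM (333 to 375) against 196 CPM (189.6 to 203), and Six4 at 22.9 CPM (18.0 to 28.8) against 13.3 CPM (11.7 to 15.1).

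Myf5 and Msc lay the other way, at 16.4 CPM (12.3 to 21.5) against 43.7 CPM (40.7 to 46.9) and at 4.64 CPM (2.60 to 7.66) against 11.5 CPM (9.94 to 13.1). Pax7, at 7.74 CPM (5.01 to 11.4) against 6.45 CPM (5.33 to 7.73), lay within its counting intervals. The fusion genes Mymk and Mymx were at 88.2 against 8.00 CPM and at 47.4 against 1.11 CPM, and the cell cycle inhibitor Cdkn1c at 149 against 10.1 CPM. Shallow barcodes of the same library held Cdkn1c at 150.3 CPM, and its log2 difference, shallow over deep, was -0.64 in the 10% library and 2.05 in the 90% library. Rrm2, a gene of DNA synthesis, was at 259 CPM (242 to 278) against 257 CPM (250.1 to 265). The 8 barcodes of the 10% library showed the same order for Myod1, at 335 CPM (287 to 389) against 172 CPM (159.5 to 184), for Mymk, at 52.9 against 3.24 CPM, and for Cdkn1c, at 409.6 against 22.5 CPM, its 209 UMIs lying in 4 of the 8 barcodes. Their intervals for Myf5, Six4, Msc and Mef2c overlapped. So did those for Mef2a, at 52.9 CPM (34.9 to 77.0) against 33.6 CPM (28.3 to 39.5). Myf5, at 17.6 CPM (8.06 to 33.5) against 15.5 CPM (12.0 to 19.7), was not in the order of the 90% library, while Six4, Msc and Mef2c were. Overlap of separate intervals does not settle whether levels differ.

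**Figure D4:**
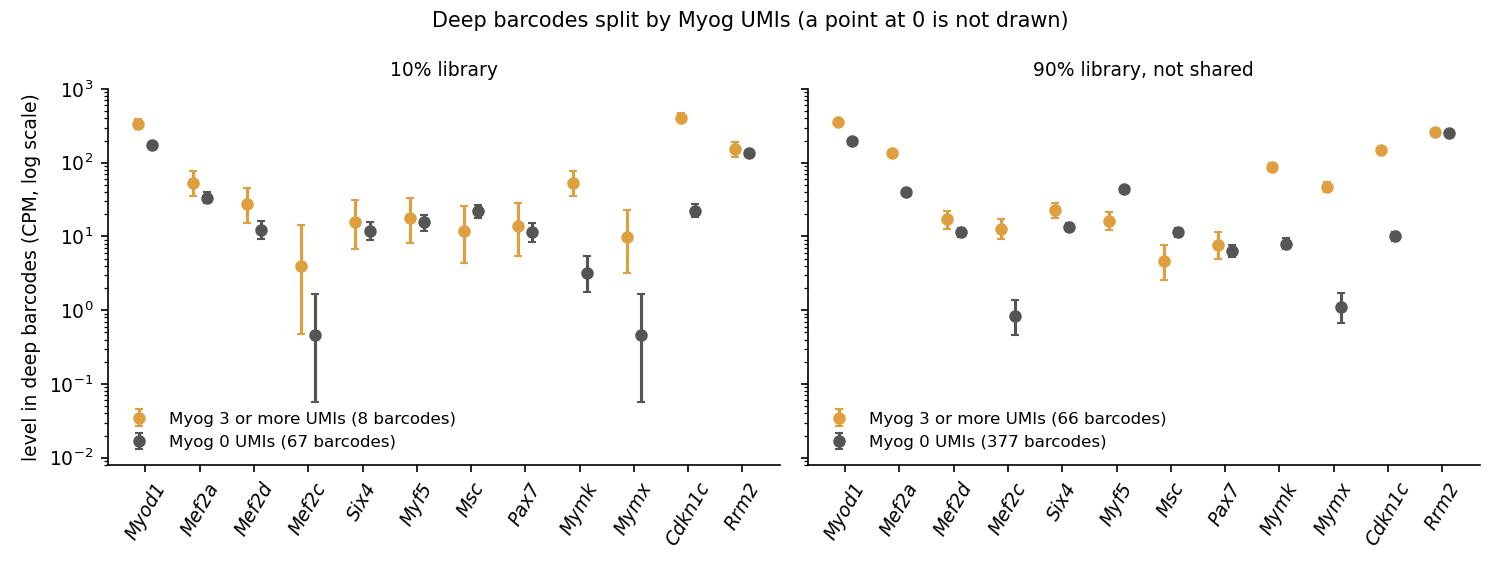
Level in CPM (log axis) in deep barcodes with 3 or more Myog UMIs (orange) and with none (grey), in the 10% library (left, 8 and 67 barcodes) and the 90% library without shared barcodes (right, 66 and 377 barcodes). Bars are exact Poisson 95% intervals. Mymk, Mymx and Cdkn1c lie above the grey points in both panels, as Mef2c does in the right one, and the intervals of Rrm2 overlap in both.

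The partners and inhibitors of these factors were followed in lists. The 3 E proteins, which pair with the bHLH factors, were split. Tcf3 was lower in shallow barcodes, at 14.4 against 38.8 CPM in the 10% library and 12.7 against 52.3 CPM in the 90% library (log2 difference -1.18 and -1.69). Tcf4 was higher, at 87.9 against 30.4 CPM and 109.7 against 37.3 CPM (1.39 and 1.44), and Tcf12 was not past 2-fold in either. Of 13 inhibitors, 10 passed the UMI minimum, 3 of them were called higher in shallow barcodes of the 10% library and 4 in the 90% library, and none higher in deep barcodes, beside shares of 11.2% and 11.2% over all genes for the first direction and of 19.8% and 19.1% for the second. Their median log2 difference was 0.45 and 0.53, against -0.22 over all genes.

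The inhibitors called in both were Heyl, Id3 and Bhlhe40. Heyl, a Notch target that represses bHLH activity, was at 126 against 11.8 CPM and 162 against 5.96 CPM (log2 difference 2.96 and 3.93). Id3, which binds E proteins and keeps them from DNA, was at 773 against 205 CPM and 957 against 215 CPM (1.89 and 2.13). Bhlhe40, a bHLH repressor, was at 29.6 CPM in shallow barcodes of the 10% library and at 62.3 against 10.7 CPM in the 90% library (1.11 and 2.10). Id1 (-0.49 and -0.26) and Id2 (0.10 and -0.25), named after their values were seen, were not past 2-fold. Of the 4 class IIa deacetylases, which hold MEF2 proteins inactive, 2 passed the minimum and Hdac4 was called higher in shallow barcodes of both libraries (log2 difference 1.46 and 1.61).

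Of 10 other myogenic factors, 4 passed the minimum and none was called in either library, with medians of 0.39 and 0.20. Of 22 differentiation targets, 17 passed, 7 were called higher in deep barcodes of each library, and 2 and 3 higher in shallow barcodes, beside the same shares over all genes (19.8% and 19.1% in deep, 11.2% in shallow barcodes), with medians of -0.68 and -0.53. Chrna1, a subunit of the muscle acetylcholine receptor, was at 30.5 against 208 CPM and 33.0 against 307 CPM (log2 difference -2.59 and -3.04). Chrnd, another subunit, had 1.79 against 16.7 CPM and 1.11 against 20.6 CPM. The giant sarcomere gene Ttn was at 15.3 against 91.6 CPM and 11.4 against 91.2 CPM. Tnnt2, a troponin, had 0 UMIs in shallow barcodes of the 10% library and was at least 8.23-fold higher in deep ones against a floor of 3 counts over the class, and in the 90% library it had 10 UMIs in shallow and 607 in deep barcodes (log2 difference -2.13). Acta1 and Ckm, genes of mature fibres that were named after their values were seen, were called the other way, with log2 differences of 1.13 and 1.11 and of 1.71 and 1.34. Cdkn1c, also named after its values were seen, was the third target called higher in shallow barcodes of the 90% library. The 4 myofibre markers, 2 of which are Acta1 and Ckm, summed to 52.0 against 23.9 CPM and 70.8 against 43.9 CPM, and the part of fibre RNA in these values was not tested.

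Myod1 was the only one of the 9 genes with at least 200 UMIs in the deep barcodes of each library, so correlations of the others were not examined. Genes were named where their correlation with Myod1 reached 0.3 in both libraries. By Pearson's correlation of log2(CPM + 50) over 79 and 507 deep barcodes, the nearest of 10316 genes were Ccnd1, which encodes cyclin D1 (0.48 and 0.52), the inhibitor Id1 (0.41 and 0.41) and the proteasome gene Psmc4 (0.58 and 0.37). The barcodes share 1 capture and differ in depth, so these values describe the barcodes and are given without a test.

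Long reads of the 10% library gave the same genes a second count and their transcript ends. They held 1382498 UMIs in the 157 shallow and 4628237 in the 79 deep barcodes. Msc was at 2207 CPM (2129 to 2287) in shallow and 102 CPM (93.4 to 112) in deep barcodes, a log2 difference of 4.36 (4.23 to 4.50). Myod1 was at 3317 CPM (3222 to 3415) and 601 CPM (579 to 624), and Myf5 at 398 CPM (365 to 433) and 34.6 CPM (29.4 to 40.4). Myog had 9 UMIs in shallow and 690 in deep barcodes, which is 22.9-fold by CPM with a counting interval of 12.0 to 50.3. A Myod1 UMI was found by long reads in 80.3% of shallow barcodes, where short reads found one in 52.9%. For Msc in deep barcodes these shares were 77.2% and 32.9%. The part of long reads assigned to the wrong barcode in such shares was not tested. The same cDNA was read both ways, so the long-read counts are a second reading of the same barcodes and not a replicate.

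UMIs of the bHLH genes lay on isoforms with annotated 3′ ends. Myog had 1 isoform, the reference transcript ENSMUST00000027730.5 with 3 exons. Myod1 had 4 isoforms, and its reference transcript ENSMUST00000072514.2 (chromosome 7, 46376474 to 46379099) took 87.8% of 4586 UMIs in shallow and 83.9% of 2782 UMIs in deep barcodes. A Myod1 isoform with a later start, at 46376590, took 6.78% and 11.6%. Myf5 had 8 isoforms, and the reference transcript ENSMUST00000000445.1 took 71.8% of 550 and 66.9% of 160 UMIs. Msc had 15 isoforms. Its reference transcript ENSMUST00000027062.6 took 49.8% of 3051 and 53.4% of 474 UMIs, and 2 isoforms without a reference name, both from 14753346 to 14755992 on chromosome 1, took 22.6% and 14.6%, and 16.8% and 13.7%. Every UMI of these 4 genes in both classes lay on an isoform that ended within 100 bases of a coding reference transcript's 3′ end in Gencode vM21. According to the study, FLAMES corrects isoform ends against the reference. By default it also merges isoforms with like junctions whose ends differ from it by less than 100 bases. These shares were thus partly set by the processing.

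Most UMIs of the long genes lay on isoforms that ended elsewhere, and the cause was not tested. Pax7 lies on chromosome 4, 139737062 to 139833528 on the minus strand, and its reference transcript has 9 exons. Of its UMIs, 0 of 39 and 0 of 64 lay on an isoform with an annotated 3′ end. Its isoforms ended in coding exon 4, with 46.2% and 56.2% of UMIs, or in coding exon 5, with 53.8% and 43.8%. For Mef2a, isoforms ending in the intron after exon 3 took 72.8% (63.7 to 80.7%) of 114 UMIs in shallow barcodes. In deep barcodes they took 49.0% (43.8 to 54.3%) of 365 UMIs. For Mef2d, the isoform ending in the intron after exon 3 took 45.8% of 48 and 55.3% of 103 UMIs. The isoform ending in the intron after exon 9 took 16.7% and 32.0%. For Six4, the isoform ending in the intron after exon 2 took 77.8% of 18 and 46.4% of 28 UMIs. None of its UMIs lay on an isoform with an annotated 3′ end. Isoforms ending within 100 bases of a coding reference transcript's 3′ end took 13.2% and 15.9% of Mef2a UMIs in shallow and deep barcodes. For Mef2d they took 27.1% and 10.7%. Within 100 bases of the end of any reference transcript, coding or not, the shares were 21.1% and 34.8% for Mef2a and 37.5% and 12.6% for Mef2d.

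**Figure D5:**
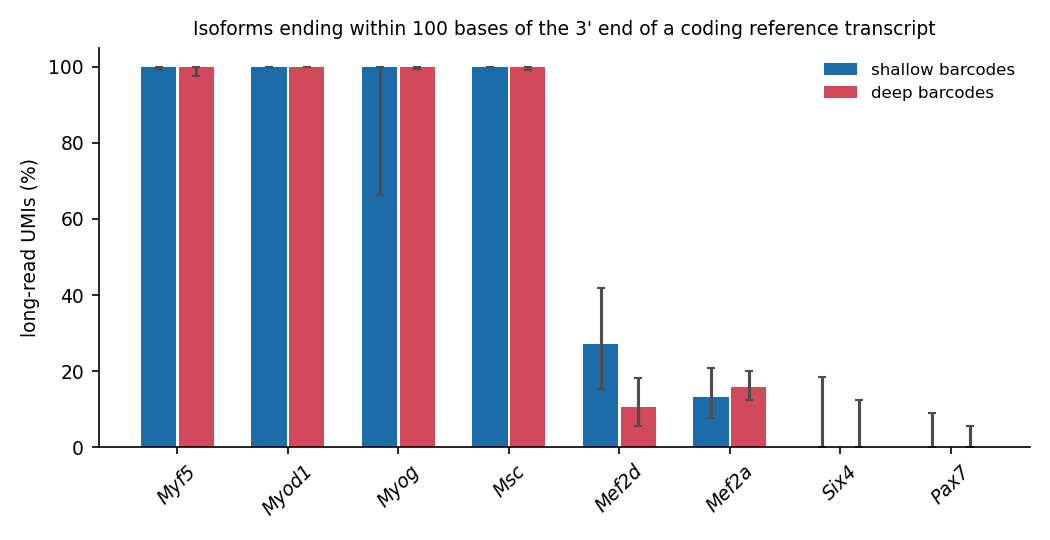
Share of long-read UMIs (percent) of each gene on isoforms that end within 100 bases of the 3′ end of a coding reference transcript, in shallow (blue) and deep (red) barcodes of the 10% library. Bars start at 0 and lines are exact binomial 95% intervals. The 4 bHLH genes stand at 100.0%, Mef2d and Mef2a below 30%, and Six4 and Pax7 at 0.

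Of the 6 genes with at least 2 isoforms and 20 long-read UMIs in each class, 0 had an isoform whose share differed by 20 percentage points, where the background over 5484 genes was 29.9%. The largest difference was for Mef2a, whose isoform from 67372827 to 67314921 on chromosome 7 took 67.5% of UMIs in shallow and 48.8% in deep barcodes (difference 18.8 points lower in deep barcodes, 8.00 to 28.7). That isoform ends in the intron after exon 3. All Mef2a isoforms ending there took 72.8% in shallow and 49.0% in deep barcodes. Mef2d isoforms within 100 bases of any reference end took 37.5% and 12.6%. Both differences are past 20 points, so the count of 0 holds for single isoforms and not for isoforms grouped by end. For Msc the difference was at most 8.09 points, on the first of its isoforms without a reference name. For Myod1 it was 4.86 points (3.47 to 6.30), higher in deep barcodes for the isoform with the later start, so the reference transcript remained its main form in both classes.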

How the data were processed

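Both libraries come from 1 Chromium capture, with 1 sample each. The authors made the deposited gene counts, which are raw UMI counts per gene and barcode, from the short reads with scPipe. The deposited isoform counts are raw long-read UMI counts, assembled and counted by the authors with FLAMES on nanopore reads of the 10% library, using Gencode vM24. The submitters' processing notes name Cell Ranger 1.3, minimap2 2.17 and build GRCm38.p6. The aligner of the short reads is not given in the sources used here. The tables were read with Python 3.11.15, numpy 2.4.6, scipy 1.17.1, pandas 2.3.3 and matplotlib 3.10.9.

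The 9 genes and all lists were chosen with earlier results of these data known. UMIs were summed per class of barcode, 5 CPM was added before a ratio, and genes with at least 20 UMIs over both classes in each library were tested against 2-fold. No test between samples was possible. Intervals are exact Poisson or Clopper-Pearson intervals at 95% and, like the limit of 3 counts that a count of 0 allows, cover counting error only. Thinned shares are the expected shares of barcodes with a UMI after drawing 3000 UMIs. Only the 2-fold call and the interval of a log2 difference were tested on simulated data, as Poisson counts without concentration in few barcodes. Doublets were kept in the values given and left out with Scrublet (scanpy 1.11.5) as an alternative. Reference ends came from Gencode vM21, on the same assembly. Named beside the 9 genes were, from each list, up to 4 genes past 2-fold the same way in both libraries, for each of the 9 with 200 UMIs in deep barcodes up to 3 genes correlated with it at 0.3 or more in both libraries, and isoforms with at least 10% of a gene's UMIs. Alternatives covered the bounds of the classes, the cycle condition, the CPM added, the fold, thinning, doublets, averaging over barcodes, read type and the barcodes kept. Sequence at isoform ends is not reported here.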

Additional observations from a re-analysis of the deposited data

Results flagged for a closer look

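Long reads carried the genes described above in barcodes that entered no class. The 1569 barcodes of the 10% library with fewer than 200 short-read UMIs accounted for 1583331 UMIs by long reads (19.1% of the total). A barcode among them had 579 at the median and 19447 at most. The myogenic genes gave 3280 UMIs there, 17.8% of their 18411 long-read UMIs, which is a signal in data outside the comparisons. Myod1 was at 1207 CPM in them, Msc at 520.4 CPM, Myf5 at 124 CPM and Myog at 78.9 CPM. These long-read levels of Myod1, Msc and Myf5 lay between those of shallow and deep barcodes. Whether these barcodes hold cells was not tested.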

How the results depend on the processing

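No paired analysis was possible because each library is 1 sample. Msc, Myf5 and Myod1 stayed past 2-fold, higher in shallow barcodes, under each alternative that could be computed, with log2 differences from 3.76 to 5.71, 1.74 to 3.57 and 2.39 to 2.77 in the 10% library and from 4.67 to 5.96, 2.46 to 3.06 and 2.19 to 2.52 in the 90% library. With all barcodes kept, 3 of the 9 genes were called higher in shallow barcodes of each library. This became 5 in the 10% library with 1 CPM added, with a 1.5-fold threshold or relative to the median of all genes, and 5 in the 90% library with the 1.5-fold threshold, by the addition of Pax7 and Mef2d.

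Calls in the other direction were not stable. The 2 of the 10% library fell to 1, Myog, with the mean CPM of single barcodes, thinning, Scrublet doublets left out, 20 CPM added, a 3-fold threshold, long reads, without barcodes richer in the 90% library, and relative to the median. The 1 of the 90% library, Six4, became 2 with thinning, 1 CPM added or a 1.5-fold threshold, and 0 with shallow barcodes from 1000 UMIs, no cycle condition, deep barcodes from 30000 or 40000 UMIs, 20 CPM added, a 3-fold threshold, without shared or immune barcodes, or relative to the median. Six4 turned to 0.71 in long reads. The cause was not tested. Of 225 differences under alternatives, 172 stayed within the counting interval, 52 moved beyond it and 1, that of Six4, was called and changed sign. Mef2a in the 10% library (0.06 in long reads) and Mef2c in the 90% library (-0.07 with the mean CPM of single barcodes, -0.40 thinned), neither of them called, also changed sign. The 0 isoform shifts became 1 (Six4, 31.3 points) with at least 10 UMIs a class, 3 (Pax7, Mef2a and Mef2d) at 10 points, and 1 (Mef2a, 20.6 points) with shallow barcodes from 1000 UMIs. Keeping only isoforms with a reference name left no gene of the 9 with more than 1 isoform, so it gave no value. The alternatives on shared, unequal and immune barcodes and on the median were chosen after seeing the data. Scrublet marked 8 of 330 barcodes of the 10% library and 3 of 2420 (0.124%) of the 90% library, too few for the caller to have worked there.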
